A study of Mus musculus with 24 samples.

Results

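Serine, glycine and proline can be made by cells from intermediates of glycolysis and the citric acid cycle, and 9 genes of these routes are described here in the left ventricle of mice with hypertension-induced left ventricular hypertrophy (LVH). The genes were chosen by name, and all 9 are among the 14912 genes of the deposited table. They are Phgdh, Psat1 and Psph of serine synthesis, Shmt2, Mthfd2 and Mthfd1l of the mitochondrial one-carbon pathway, Aldh18a1 and Pycr1 of proline synthesis, and Prodh of proline breakdown. The study infused male wild-type C57BL/6J mice by subcutaneous osmotic minipump for 7 days. The hypertensive-LVH group received angiotensin II (ANG II) at 1500 ng/kg/min, a dose that raises blood pressure, and the control group received saline. RNA selected with oligo(dT) from the left ventricle of 12 mice of each group was analysed. Further samples of the study were not analysed here.

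Serine synthesis branches from glycolysis at 3-phosphoglycerate, which is oxidised, given an amino group taken from glutamate, and dephosphorylated. In mitochondria serine then gives up a carbon to folate, and the carbon is passed on as formate for the making of purines, thymidylate and methionine. Proline is made from glutamate through pyrroline-5-carboxylate, and collagen, the main protein of the scar-forming matrix, is unusually rich in proline and glycine. In the adult heart, cardiomyocytes hold most of the muscle proteins while fibroblasts secrete most of the collagen, so RNA of the whole ventricle mixes these cells. With such RNA, fewer cells of a type and less RNA per cell cannot be told apart. Several of these genes are known targets of ATF4, a transcription factor of the integrated stress response, which binds a C/EBP-ATF response element.

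The stretches just upstream of 5 of the genes are shown, those of Phgdh, Psat1 and Mthfd2 because these were higher in the hypertensive-LVH group, and those of Aldh18a1 and Pycr1 because they hold a motif that was searched for. Each is the 250 bases before a transcript start in RefSeq (GRCm38.p6), written 5′ to 3′ on the strand of the gene, with the motif in capitals.
Phgdh, chr3:98339970-98340219, minus strand: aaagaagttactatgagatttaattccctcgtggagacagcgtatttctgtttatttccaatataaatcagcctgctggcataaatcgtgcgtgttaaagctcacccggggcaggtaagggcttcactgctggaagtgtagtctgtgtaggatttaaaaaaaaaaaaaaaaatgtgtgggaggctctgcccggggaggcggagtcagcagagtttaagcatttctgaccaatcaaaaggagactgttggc
Psat1, chr19:15925060-15925309, minus strand: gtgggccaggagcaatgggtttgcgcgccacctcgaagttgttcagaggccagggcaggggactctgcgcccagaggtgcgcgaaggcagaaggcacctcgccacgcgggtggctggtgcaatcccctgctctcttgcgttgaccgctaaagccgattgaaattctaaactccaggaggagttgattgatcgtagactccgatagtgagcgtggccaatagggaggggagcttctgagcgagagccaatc
Mthfd2, chr6:83317605-83317854, minus strand: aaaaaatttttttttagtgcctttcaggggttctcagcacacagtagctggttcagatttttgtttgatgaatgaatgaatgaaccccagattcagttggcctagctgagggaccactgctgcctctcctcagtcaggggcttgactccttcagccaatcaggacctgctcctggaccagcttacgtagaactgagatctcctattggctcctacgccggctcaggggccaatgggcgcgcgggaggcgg
Aldh18a1, chr19:40588464-40588713, minus strand: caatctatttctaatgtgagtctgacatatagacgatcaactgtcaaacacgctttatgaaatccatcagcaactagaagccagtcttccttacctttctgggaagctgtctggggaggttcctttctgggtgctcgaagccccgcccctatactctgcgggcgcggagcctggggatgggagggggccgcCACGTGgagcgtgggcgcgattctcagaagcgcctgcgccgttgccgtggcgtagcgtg
Pycr1, chr11:120643749-120643998, minus strand: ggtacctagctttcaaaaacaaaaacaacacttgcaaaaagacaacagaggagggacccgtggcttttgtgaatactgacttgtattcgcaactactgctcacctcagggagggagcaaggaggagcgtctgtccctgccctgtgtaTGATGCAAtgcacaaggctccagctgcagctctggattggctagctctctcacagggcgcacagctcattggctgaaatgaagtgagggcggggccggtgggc

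All 9 genes had a promoter window in RefSeq, 10 windows in all, each reaching from 250 bases before the start to 50 bases after it. Both strands were searched for the 8-letter core of the C/EBP-ATF response element, TGATGNAA, where N is any base, and for the E-box CACGTG. The core was found in the window of Pycr1, as TGATGCAA starting 103 bases before the start, and the E-box was found in that of Aldh18a1, starting 59 bases before the start. Of 32851 windows of all genes, 3.97% held the core and 7.15% the E-box. The windows of the other 7 genes, Phgdh, Psat1 and Mthfd2 among them, did not hold these letters, which says nothing of sites elsewhere.

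The deposited values are labelled FPKM, the fragments of a gene per length of transcript and number of mapped fragments, but they were not plain FPKM. Of all values 0.766% were negative, and 1 of these belongs to the 9 genes, Phgdh in control replicate 6. Ties between samples showed 4 sets within which the values had been shifted and scaled. Each set took 3 samples of either group with the same numbers, beginning with samples 1 to 3 and ending with samples 10 to 12. Differences between the groups were therefore also read within sets, and again after the scaling of each gene was undone. Steps between the values showed further that, for each of the 9 genes, a difference between the groups had been set aside before scaling. It was 1.86 FPKM for Psat1, 3.54 FPKM for Mthfd2 and -3.85 FPKM for Shmt2. The step thus used the group labels, and p values on deposited values do not allow for this. Counts of samples above or below controls compare deposited values across sets and carry the same limit. Control replicates 4 to 6 stood apart from the other controls. The summed FPKM of 25 genes of collagens and proline hydroxylase families, called the collagen genes below, was 514 to 722 in these controls and 1293 to 1596 in the other 9. In the hypertensive-LVH group it was 2511 to 3131 in replicates 4 to 6 and 1294 to 2732 in the other 9. Whether these controls or the whole set differed was not tested. Because the offset of a set is unknown, values without samples 4 to 6 of both groups are given where their removal changed a call or moved a called value or a count by over 1.5 times. All values of a sample summed to 482319 to 567727 among controls and to 460715 to 515185 among hypertensive-LVH samples, and the number of reads behind them is not known. With ANG II, 6 of the 12 cardiomyocyte markers were lower and 1 was higher. Their summed level was 51380 to 65550 FPKM in controls and 39340 to 57050 FPKM with ANG II, and no marker had a median of 0. All 12 macrophage markers were higher, 5 of 10 fibroblast markers were higher and 1 lower, and 5 of 6 red blood cell markers were higher. With samples 4 to 6 left out, 4 cardiomyocyte markers were lower and 1 higher, 2 macrophage markers were higher, 1 fibroblast marker was higher and 1 lower, and 5 red blood cell markers were higher. Without samples 7 to 9, 8 macrophage markers were higher. Of 8 endothelial markers 2 were higher and 1 lower, and of 8 smooth muscle and pericyte markers 2 were higher and 2 lower. When samples 4 to 6 were left out, 1 endothelial marker was higher and 1 lower, and the calls left among the smooth muscle and pericyte markers were 2 lower genes. Of 5 atrial markers 0 were called, but their summed level varied widely, from 0.793 to 3239 FPKM in controls and 5.51 to 2390 FPKM with ANG II. Their median log2 fold change was 0.96, and -0.09 without samples 4 to 6. Of all genes tested, 20.9% were higher and 12.6% lower, and 20.1% were called without samples 4 to 6. What the shifts of these markers add to the differences below was not tested.

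Of the 9 genes, 5 differed between the groups by limma at an adjusted p under 0.05, Psat1, Mthfd2 and Phgdh being higher and Shmt2 and Prodh lower in the hypertensive-LVH group. Of the 14026 genes with a mean of at least 0.1 FPKM, 33.5% passed this threshold, 20.9% higher and 12.6% lower, so a count of 3 higher and 2 lower out of 9 is not far from that of all genes. With the additional threshold of the study, an absolute log2 fold change over 0.5, Psat1 and Mthfd2 remained, against 4.52% of all genes that were higher by this rule. Mthfd2 fell under 0.5 without samples 4 to 6 (0.45), without samples 7 to 9 (0.48) and with quantile normalization (0.43). Without samples 4 to 6 the 9 genes held 2 higher and 1 lower, with 20.1% of all genes called, and without samples 7 to 9 they held the same counts, with 27.1% of all genes called. The median log2 fold change of the 9 genes was 0.23, and that of all genes tested was 0.05. Without samples 4 to 6 these medians were 0.14 and 0.0051. Fold changes are of FPKM + 1 on the log2 scale, which understates the changes of genes at low levels.

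In control ventricles the genes spanned a wide range of levels. Shmt2 was at 30.2 FPKM ± 2.28 (SD, n = 12) and Prodh at 14.7 FPKM ± 1.81 (SD, n = 12), and neither range overlapped that of the gene below it. Aldh18a1 came next at 5.38 FPKM ± 1.02 (SD, n = 12). Psph, Mthfd2, Psat1, Pycr1, Phgdh and Mthfd1l followed at 3.52, 2.76, 1.84, 1.4, 1.15 and 0.504 FPKM, and from Aldh18a1 downwards each gene overlapped the next in its range. The 3 genes that were higher with ANG II were thus all at low levels, whereas both genes that were lower were the most abundant of the 9.

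**Figure D1:**
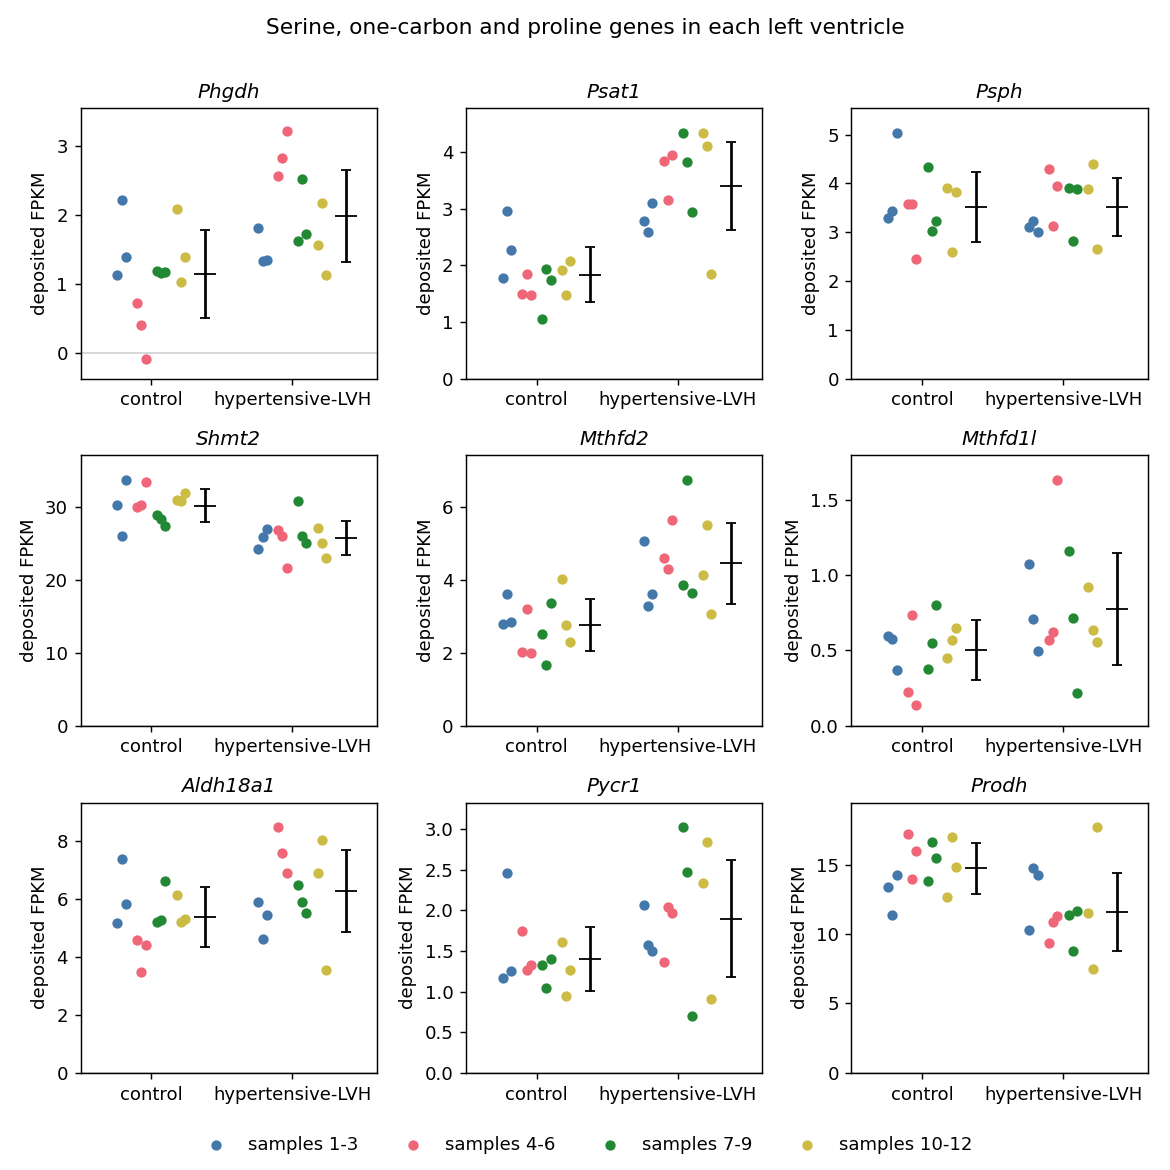
Deposited FPKM of the 9 genes in each left ventricle (vertical axes, a scale for each gene) for 12 control and 12 hypertensive-LVH samples. Points are samples coloured by set, and bars beside them are the mean and SD. The 12 hypertensive-LVH samples lie above the control median for Psat1 and Mthfd2, 11 of 12 lie below it for Shmt2, and control replicates 4 to 6 hold the 3 lowest values of Phgdh.

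Phgdh (ENSMUSG00000053398.11, chromosome 3, 98313170 to 98339990) encodes phosphoglycerate dehydrogenase, which commits 3-phosphoglycerate to serine. Its lowest, median and highest values were -0.0930, 1.17 and 2.23 FPKM in the control group and 1.13, 1.77 and 3.23 FPKM in the hypertensive-LVH group. The groups overlapped, with 11 of 12 hypertensive-LVH samples above the control median and 4 above all controls. The log2 fold change was 0.50 ± 0.15 (SE, limma adjusted p = 0.0144). The difference was unevenly spread over the sets. Within samples 4 to 6 the hypertensive-LVH samples held 2.57, 2.84 and 3.23 FPKM against 0.723, 0.406 and -0.0930 FPKM in the controls, so that the mean difference was 2.53 FPKM. It was -0.0808, 0.781 and 0.114 FPKM in samples 1 to 3, 7 to 9 and 10 to 12. Without samples 4 to 6 the log2 fold change was 0.16 and the call was lost (limma adjusted p = 0.309), and it was also lost without samples 7 to 9 (adjusted p = 0.0561, log2 fold change 0.52). A processed pseudogene of this gene, Phgdh-ps1, is annotated, and how reads were shared with it is not known.

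Psat1 (ENSMUSG00000024640.9, chromosome 19, 15904678 to 15947337) encodes phosphoserine aminotransferase, which moves the amino group of glutamate onto the serine precursor. The lowest, median and highest samples held 1.06, 1.82 and 2.97 FPKM in the control group and 1.85, 3.49 and 4.34 FPKM with ANG II. All 12 hypertensive-LVH samples lay above the control median and 8 above all controls, so the groups overlapped only in part. Its mean was 1.85 times that of the control group, with a log2 fold change of 0.63 ± 0.10 (SE, limma adjusted p = 6.23e-05). The difference of deposited values was positive within each of the 4 sets, at 0.483, 2.04, 2.12 and 1.61 FPKM. Before the adjustment within sets it was 0.143, 1.99, 2.01 and 1.61 FPKM. The call was kept under all 37 alternatives, with the log2 fold change between 0.51 and 0.86.

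Psph (ENSMUSG00000029446.14, chromosome 5, 129765558 to 129787449) encodes phosphoserine phosphatase, which carries out the final step. From lowest over median to highest, the values of Psph were 2.45, 3.50 and 5.03 FPKM in the control group and 2.66, 3.55 and 4.40 FPKM in the hypertensive-LVH group. The ranges overlapped almost wholly, with 6 of 12 hypertensive-LVH samples above the control median. The log2 fold change was 0.00 ± 0.08 (SE, limma adjusted p = 0.974), with a 95% interval of -0.17 to 0.18. Exons of Psph overlap those of Cct6a, a chaperonin subunit gene on the opposite strand at a mean of 53.6 FPKM. The sources used here do not say that strand was kept, so reads in the shared bases cannot be assigned to either gene.

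Shmt2 (ENSMUSG00000025403.5, chromosome 10, 127517123 to 127522444) encodes the mitochondrial serine hydroxymethyltransferase, which splits serine into glycine and a folate-bound carbon. Shmt2 had lowest, median and highest values of 26.1, 30.3 and 33.8 FPKM in the control group and 21.7, 26.0 and 30.9 FPKM in the hypertensive-LVH group. Of 12 hypertensive-LVH samples, 11 lay below the control median and 8 below all controls, the highest being replicate 7. Shmt2 fell by 0.22 ± 0.05 on the log2 scale (SE, limma adjusted p = 0.00114), to 0.853 times the control mean. It was lower within each of the 4 sets, by a mean difference of -4.31, -6.39, -0.935 and -6.16 FPKM, and the call was kept under all 37 alternatives. Before the adjustment within sets the differences were -4.46, -6.66, -1.42 and -5.76 FPKM. Exons of Shmt2 overlap those of Ndufa4l2 on the opposite strand, which was at a mean of 29.4 FPKM and had a log2 fold change of 0.04 (limma adjusted p = 0.864).

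Mthfd2 (ENSMUSG00000005667.8, chromosome 6, 83305691 to 83325908) encodes the mitochondrial methylenetetrahydrofolate dehydrogenase and cyclohydrolase, the step after Shmt2, and is known for high levels in embryonic and dividing cells. For Mthfd2 the lowest, median and highest values were 1.68, 2.78 and 4.02 FPKM in the control group and 3.08, 4.22 and 6.75 FPKM in the hypertensive-LVH group. All 12 hypertensive-LVH samples lay above the control median and 7 above all controls. Mthfd2 rose to 1.61 times the control mean, with a log2 fold change of 0.54 ± 0.11 (SE, limma adjusted p = 0.000681). The difference of deposited values was positive within every set, at 0.915, 2.44, 2.22 and 1.21 FPKM. Before the adjustment within sets it was 0.480, 2.70, 2.69 and 1.48 FPKM. The call at an adjusted p under 0.05 was kept under all 37 alternatives, with the log2 fold change between 0.43 and 0.68.

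Mthfd1l (ENSMUSG00000040675.17, chromosome 10, 3973118 to 4167081) encodes the mitochondrial formyltetrahydrofolate synthetase that releases formate. At its lowest, median and highest, Mthfd1l was at 0.139, 0.558 and 0.802 FPKM in the control group and 0.216, 0.671 and 1.63 FPKM in the hypertensive-LVH group. The groups overlapped, with 10 of 12 hypertensive-LVH samples above the control median. The log2 fold change of 0.22 ± 0.10 did not pass the threshold (limma adjusted p = 0.0739, 95% interval 0.03 to 0.42). Hypertensive-LVH replicate 9 had the lowest value of its group, and without it the log2 fold change was 0.27 (adjusted p = 0.0214).

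**Figure D2:**
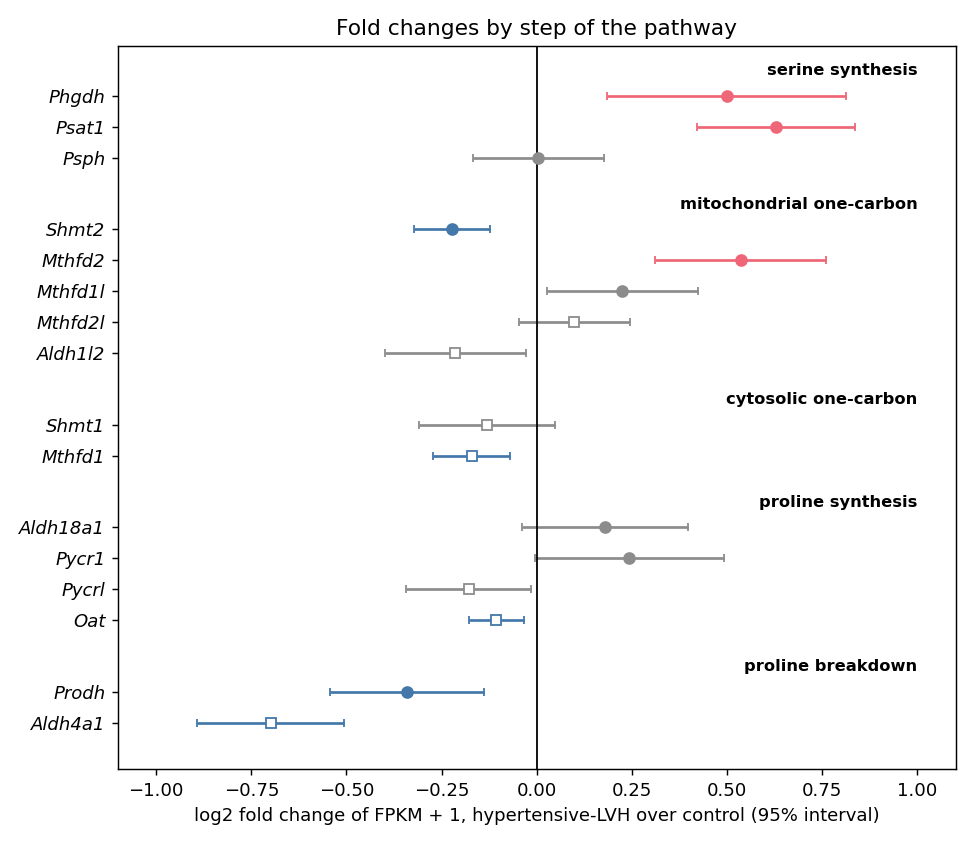
Log2 fold changes of FPKM + 1, hypertensive-LVH over control (horizontal axis), with 95% intervals, for the 9 genes (filled circles) and their paralogs or partner enzymes (open squares), grouped by step. Red marks genes that were higher and blue genes that were lower by limma at an adjusted p under 0.05, and grey those that did not pass. Psat1 lies farthest to the right at 0.63 and Aldh4a1 farthest to the left at -0.70.

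Aldh18a1 (ENSMUSG00000025007.13, chromosome 19, 40550257 to 40588463) encodes the synthase of pyrroline-5-carboxylate, the entry from glutamate into proline. The lowest, median and highest samples held 3.48, 5.25 and 7.37 FPKM in the control group and 3.55, 6.18 and 8.47 FPKM in the hypertensive-LVH group. The ranges overlapped, and 10 of 12 hypertensive-LVH samples lay above the control median. The log2 fold change of 0.18 ± 0.11 did not pass the threshold (limma adjusted p = 0.191), and without samples 4 to 6 it was -0.01 (adjusted p = 0.956). Within samples 4 to 6 the difference was 3.48 FPKM, whereas it was -0.805, 0.272 and 0.610 FPKM in the other sets.

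Pycr1 (ENSMUSG00000025140.15, chromosome 11, 120635712 to 120643769) encodes a mitochondrial pyrroline-5-carboxylate reductase, the last step to proline. Pycr1 had lowest, median and highest values of 0.943, 1.30 and 2.46 FPKM in the control group and 0.700, 2.00 and 3.02 FPKM in the hypertensive-LVH group. In the hypertensive-LVH group 10 of 12 samples lay above the control median, but replicates 9 and 12 lay below all controls, at 0.700 and 0.905 FPKM. The log2 fold change was 0.24 ± 0.12 (SE, limma adjusted p = 0.12, 95% interval -0.01 to 0.49). Without hypertensive-LVH replicate 9 it was 0.31 (adjusted p = 0.0298).

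Prodh (ENSMUSG00000003526.12, chromosome 16, 18060357 to 18090203) encodes proline dehydrogenase, the first step of proline breakdown in mitochondria. Its lowest, median and highest values were 11.4, 14.5 and 17.2 FPKM in the control group and 7.46, 11.3 and 17.7 FPKM in the hypertensive-LVH group. Below all controls lay 7 hypertensive-LVH samples, and replicate 12 lay above all of them. The log2 fold change was -0.34 ± 0.10 (SE, limma adjusted p = 0.0101). The difference was 0.0909 FPKM in samples 1 to 3 and -5.21, -4.72 and -2.61 FPKM in the following sets. The call was lost without samples 4 to 6 (adjusted p = 0.119, log2 fold change -0.28) and without samples 7 to 9 (adjusted p = 0.0823, log2 fold change -0.29).

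When the scaling within sets was undone, the directions of all 9 genes stayed the same. An exact permutation test that exchanged labels within sets, two-sided and over 160000 relabelings, was then run on these values for each gene that could be recovered, 13744 in all, of which 28.4% passed at an adjusted p under 0.05. The mean within-set difference was 1.44 FPKM for Psat1 (exact p = 0.0004, adjusted p = 0.00486), 1.84 FPKM for Mthfd2 (exact p = 0.000263, adjusted p = 0.00393) and -4.58 FPKM for Shmt2 (exact p = 0.000525, adjusted p = 0.00569). These 3 genes passed. Phgdh, with a difference of 0.798 FPKM, did not (exact p = 0.0239, adjusted p = 0.0714), nor did Prodh, with a difference of -2.72 FPKM (exact p = 0.0537, adjusted p = 0.127). On the deposited values the same test gave adjusted p = 0.0454 for Phgdh and 0.0347 for Prodh in the exact permutation, where 27.4% of all genes passed. Before the adjustment the difference of Phgdh was negative in samples 1 to 3, at -0.510 FPKM, and positive in the other sets. That of Pycr1 in samples 1 to 3 was 0.0822 FPKM on deposited values and -0.163 FPKM before the adjustment.

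**Figure D3:**
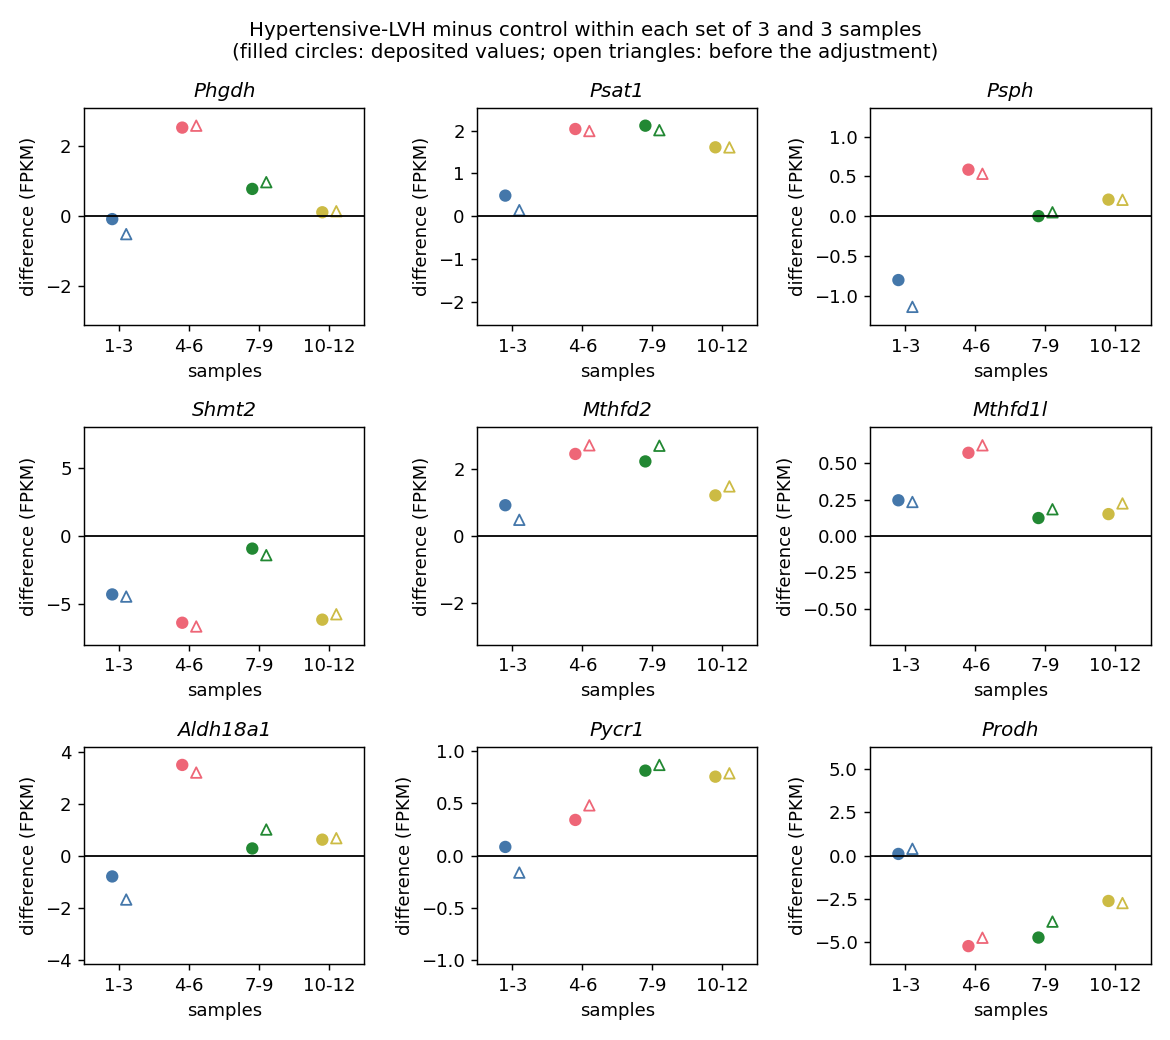
Mean of the 3 hypertensive-LVH samples minus that of the 3 control samples of each set (vertical axes, FPKM, a scale for each gene), for the deposited values (filled circles) and before the adjustment within sets (open triangles). Psat1 and Mthfd2 lie above 0 and Shmt2 below 0 in all 4 sets, while Phgdh and Aldh18a1 are farthest from 0 in samples 4 to 6.

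Single samples often held the extreme of several genes at once. Hypertensive-LVH replicate 12 had the lowest value of its group for Phgdh, Psat1, Psph, Mthfd2 and Aldh18a1 and the highest for Prodh. The same sample was 11th from the highest of 12 in the summed level of the collagen genes, at 1404 FPKM, and the lowest in that of the macrophage markers, at 361 FPKM. Control replicate 2 had the highest value of its group for Phgdh, Psat1, Aldh18a1 and Pycr1 and the lowest for Shmt2 and Prodh. Its summed level of the collagen genes, 1596 FPKM, was the highest of the controls. Without either sample the calls of the 5 genes were kept.

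The variation among samples of the same group and set was then compared with 4 lists of genes, after the mean of each group in each set had been removed. The list called the collagen genes held 17 collagen chains and 8 genes of proline hydroxylase families. Over 24 samples, 36 relations were computed, with permutations within these cells and Benjamini-Hochberg adjustment over the 36. Mthfd2 was higher in samples with a higher mean level of the fibroblast markers (Pearson r = 0.814, permutation p = 0.00037, adjusted p = 0.0133, Spearman rho = 0.758, permutation p = 0.00029, adjusted p = 0.0104), and r was 0.746 without the 2 farthest samples. It also varied with the collagen genes (r = 0.733, permutation p = 0.00082, adjusted p = 0.0148, rho = 0.67, permutation p = 0.00407, adjusted p = 0.0244, r = 0.707 without the 2 farthest). Prodh varied in the opposite direction, with r = -0.806 for the collagen genes (permutation p = 0.00158, adjusted p = 0.019, rho = -0.772, permutation p = 0.00071, adjusted p = 0.0128, r = -0.782 without the 2 farthest). For the fibroblast markers Prodh had r = -0.70 (permutation p = 0.00372, adjusted p = 0.0335, rho = -0.676, permutation p = 0.00319, adjusted p = 0.0244, r = -0.568 without the 2 farthest). Phgdh varied with the fibroblast markers (r = 0.649, permutation p = 0.00684, adjusted p = 0.0492, rho = 0.71, permutation p = 0.00241, adjusted p = 0.0244, r = 0.556 without the 2 farthest). For Pycr1 and the collagen genes r was 0.764 (permutation p = 0.0144, adjusted p = 0.0862) and rho 0.694 (permutation p = 0.00368, adjusted p = 0.0244), with r = 0.649 without the 2 farthest.

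The same correlations were computed for all genes. An absolute r at least as large was seen in 1.18% of all genes for Mthfd2 and the fibroblast markers, in 2.04% for Prodh and the collagen genes, in 4.99% for Mthfd2 and the collagen genes, in 5.59% for Prodh and the fibroblast markers, and in 8.9% for Phgdh and the fibroblast markers. Shmt2 had r = 0.01 with the collagen genes, and 98.5% of all genes had an absolute r at least as large. No relation with the cell cycle genes or the macrophage markers passed in both measures. Prodh and the cell cycle genes had r = -0.77 (permutation p = 0.028, adjusted p = 0.144) and rho = -0.446 (permutation p = 0.0887, adjusted p = 0.232), and r was -0.428 when the 2 farthest samples were left out. For this relation 0.614% of all genes had an absolute r of that size or more. Whether the number of fibroblasts in a sample lies behind these relations was not tested.

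**Figure D4:**
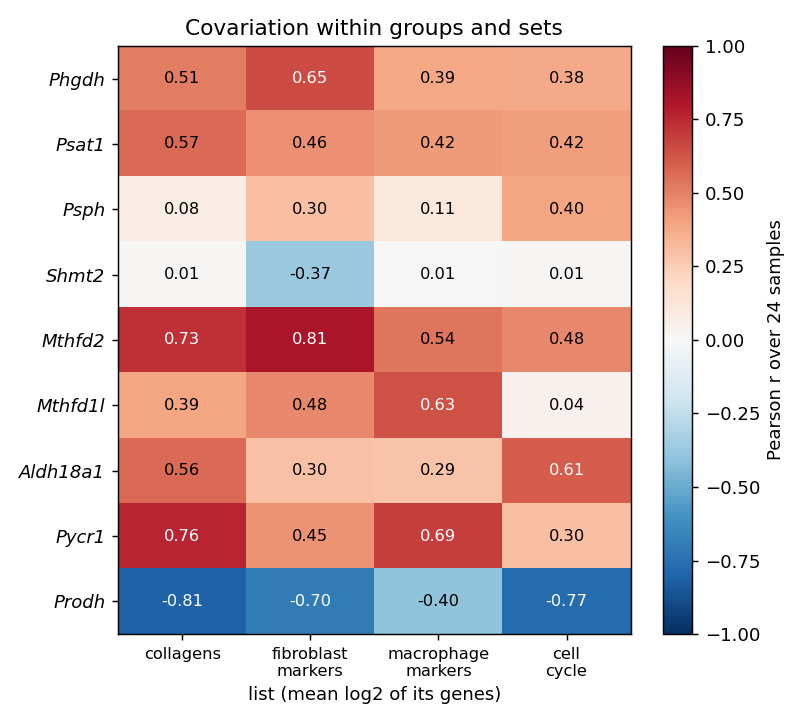
Pearson r over 24 samples between each of the 9 genes (rows) and the mean log2 level of 4 gene lists (columns), after the mean of each group in each set was removed, with red for positive and blue for negative values. The collagen list also holds 8 genes of proline hydroxylase families. Mthfd2 has the largest positive value, 0.81 with the fibroblast markers, and Prodh the most negative, -0.81 with the collagen genes.

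Among the 9 genes themselves, the correlation of the same deviations was 0.727 for Psat1 and Aldh18a1, 0.692 for Aldh18a1 and Pycr1 and 0.663 for Psat1 and Pycr1, each given as a description over 24 samples. Prodh was negatively related to Mthfd2 (r = -0.734) and to Aldh18a1 (r = -0.708). Shmt2 was related neither to Prodh (r = 0.01) nor strongly to Mthfd2 (r = -0.32), the next enzyme of its own pathway. The genes most like each member were also listed. They were picked as the highest r among 14026 tested genes, and no background was computed for such maxima. Those most like Pycr1 were Wtip (r = 0.917), Pdia5 (r = 0.917) and Creb3l1 (r = 0.913), of which Pdia5 encodes a protein disulfide isomerase of the endoplasmic reticulum. Those most like Phgdh were Fam131b (r = 0.895), Sertad4 (r = 0.882) and Sulf1 (r = 0.87), and those most like Mthfd1l were Tgfbi (r = 0.876), P2rx7 (r = 0.86) and Srpx (r = 0.819). Those most like Psat1 were Faap20 (r = 0.831), Wdr6 (r = 0.824) and Acap3 (r = 0.814), and those most like Mthfd2 were Def6 (r = 0.843), Ywhah (r = 0.832) and Actg2 (r = 0.831). For Shmt2 they were Lbh (r = 0.878), Coq2 (r = 0.871) and Ndufb7 (r = 0.87), the last of these encoding a subunit of respiratory complex I. For Prodh they were Calcoco1 (r = 0.884), Acy1 (r = 0.838) and Psmc1 (r = 0.837), for Aldh18a1 Rbms2 (r = 0.893), Degs1 (r = 0.878) and Cnih4 (r = 0.869), and for Psph Hmgn2 (r = 0.842), Lsm12 (r = 0.824) and Txnl4a (r = 0.817).

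Of the 7 paralogs and partner enzymes described here, Mthfd1, Aldh4a1 and Oat were lower and the other 4 did not pass the test. The cytosolic serine hydroxymethyltransferase Shmt1 was at 5.37 FPKM ± 0.93 (SD, n = 12) in the control group and 4.82 ± 0.88 FPKM (SD, n = 12) in the hypertensive-LVH group, with a log2 fold change of -0.13 (limma adjusted p = 0.244). Mthfd1, the cytosolic enzyme that takes up formate, fell by 0.17 ± 0.05 on the log2 scale (SE, limma adjusted p = 0.00919), although without samples 4 to 6 the adjusted p was 0.089. Mthfd2l, the paralog of Mthfd2, had a log2 fold change of 0.10 (adjusted p = 0.286), and Aldh1l2, the mitochondrial formyltetrahydrofolate dehydrogenase, had one of -0.21 (adjusted p = 0.0692), which passed after median-ratio scaling of the samples (adjusted p = 0.0286), after quantile normalization (adjusted p = 0.00403) and without hypertensive-LVH replicate 6 or 7 or control replicate 6 (adjusted p = 0.0471, 0.0483 and 0.0394). Pycrl, a pyrroline-5-carboxylate reductase like Pycr1, had a log2 fold change of -0.18 (adjusted p = 0.0853). It passed after the same scalings (adjusted p = 0.0472 and 0.0255) and without hypertensive-LVH replicate 5 or 7 (adjusted p = 0.0399 and 0.0339).

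Among the 9 genes and these partners, Aldh4a1 had the largest absolute log2 fold change with the pseudocount of 1. With a pseudocount of 0.1 it was -0.72 (SE 0.0963), below 0.96 for Phgdh and 0.86 for Psat1 in size. The value of Phgdh then had an SE of 0.35 (limma adjusted p = 0.0378), and control replicate 6, negative for Phgdh, had been set to 0. Aldh4a1 encodes the dehydrogenase that turns pyrroline-5-carboxylate into glutamate and completes proline breakdown. For Aldh4a1 the lowest, median and highest values were 35.2, 45.4 and 54.5 FPKM in the control group and 20.2, 28.8 and 38.6 FPKM in the hypertensive-LVH group. All 12 hypertensive-LVH samples lay below the control median. Aldh4a1 fell by 0.70 ± 0.09 on the log2 scale (SE, limma adjusted p = 8.70e-06), and the difference before the adjustment within sets was negative in each set, at -9.03, -32.3, -14.8 and -16.8 FPKM. Oat, which links ornithine to pyrroline-5-carboxylate, was at 109 FPKM ± 6.16 (SD, n = 12) in controls and 101 FPKM ± 5.44 (SD, n = 12) with ANG II (log2 fold change -0.11, limma adjusted p = 0.0235, and 0.171 without samples 4 to 6, 0.0736 without samples 1 to 3 and 0.133 without samples 7 to 9).

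Of 58 other genes of serine, glycine, folate, methionine and proline metabolism that were tested, 11 were higher, 9 lower and 38 not called, and their median log2 fold change was 0.02. These counts are not far from those of all genes, of which 20.9% were higher and 12.6% lower, with a median of 0.05. Without samples 4 to 6 there were 4 higher and 8 lower, with 20.1% of all genes called. Among the 58 genes, transporters of serine, glycine and proline held 5 of the 11 higher genes and none of the lower ones. Of these transporters 11 were tested, with a median log2 fold change of 0.28. Of these transporters 2 were higher without samples 4 to 6, and their median was 0.05. The 3 largest rises were of Slc38a2, Slc1a4 and Sfxn3. Slc38a2, a sodium-coupled transporter of small neutral amino acids including proline, rose from 50.6 to 70.1 FPKM (log2 fold change 0.47 ± 0.10 SE, limma adjusted p = 0.00116), with 12 of 12 hypertensive-LVH samples above the control median. Slc1a4, a neutral amino acid transporter that carries serine, had a log2 fold change of 0.43 (adjusted p = 0.0259), and Sfxn3, of the family of mitochondrial serine carriers, one of 0.42 (adjusted p = 0.0156). Slc1a4 did not pass by the Wilcoxon rank-sum test (adjusted p = 0.0619). Without samples 7 to 9 the log2 fold change of Slc38a2 was 0.31 (adjusted p = 0.0483). Without samples 4 to 6 the adjusted p was 0.000139 for Slc38a2 but 0.529 for Slc1a4 and 0.385 for Sfxn3, whose log2 fold changes were then 0.10 and 0.13. Besides the partner enzymes described above, Aldh4a1 among them, the 3 largest falls were of Gnmt, a glycine methyltransferase (log2 fold change -0.48, adjusted p = 0.0136), Cth, which makes cysteine from cystathionine (-0.34, adjusted p = 0.00539), and Got1, the cytosolic aspartate aminotransferase (-0.29, adjusted p = 0.00274). Got1 was at 609 FPKM ± 55.5 (SD, n = 12) in controls and 501 FPKM ± 67.7 (SD, n = 12) with ANG II, and all 12 hypertensive-LVH samples lay below the control median, but its adjusted p was 0.0958 without samples 4 to 6. Without samples 7 to 9 the adjusted p was 0.157 for Gnmt and 0.0598 for Cth.

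Atf4 and targets of ATF4 outside the 9 genes were compared in the same fit. Of 25 tested, Atf4 included, 9 were higher and 1 was lower, against 20.9% and 12.6% of all genes. The median log2 fold change of the 25 was 0.16. Asns, Slc6a9, Cth and Aldh1l2 also belong to the pathway genes counted above. Atf4 itself had a log2 fold change of 0.28 ± 0.08 (SE, limma adjusted p = 0.0135), and 9 of 12 hypertensive-LVH samples lay above the control median, but the adjusted p was 0.0849 without samples 7 to 9. Ddit3, a stress gene downstream of ATF4 that is also known as Chop, was at 14.0 and 14.6 FPKM (log2 fold change 0.05, adjusted p = 0.674). The 3 largest rises were of Nupr1 (1.42, adjusted p = 0.00269), Gdf15 (0.99, adjusted p = 0.00195) and Ddit4 (0.76, adjusted p = 0.000907), and the gene that fell was Cth. The order of these 3 changed without samples 4 to 6, with log2 fold changes of 0.66 for Nupr1 (adjusted p = 0.0206), 0.68 for Gdf15 (adjusted p = 0.0308) and 0.88 for Ddit4 (adjusted p = 0.00391). Of 20 cytosolic tRNA synthetases, 6 were higher and 1 was lower, against the same shares of all genes. Their 2 largest changes were of Eprs (0.26, adjusted p = 0.0341) and Cars (0.22, adjusted p = 0.000615). Eprs, which charges the tRNAs of glutamate and proline, lost its call without samples 4 to 6 (adjusted p = 0.0605). The list then held 1 call, with 20.1% of all genes called. The 7 calls of this list fell to 4 with the set as a term, 2 with median-ratio scaling and 2 without samples 10 to 12. The call of Eprs was also lost with the set as a term (adjusted p = 0.0536), without hypertensive-LVH replicate 1, 2, 3 or 12, without control replicate 6 or 10 (adjusted p from 0.0501 to 0.0625), without samples 1 to 3 (adjusted p = 0.229) or samples 10 to 12 (adjusted p = 0.0657) and after median-ratio scaling (adjusted p = 0.0897) or quantile normalization (adjusted p = 0.0731).

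Of 25 genes of collagens and proline hydroxylase families, 21 were higher and 1, P3h4, was lower. Of all genes tested, 20.9% were higher and 12.6% lower. The 25 genes had a median log2 fold change of 0.72. The 2 largest changes were of Col1a1 (2.77, limma adjusted p = 0.018) and Col3a1 (2.63, adjusted p = 0.0418), and both genes held 3 negative values that were set to 0. Col1a1 had a log2 fold change of 0.77 without samples 4 to 6 (adjusted p = 0.0171). Col3a1 lost its call without samples 4 to 6 (log2 fold change 0.39, adjusted p = 0.0866), with a pseudocount of 0.1 (adjusted p = 0.0562) and without any of hypertensive-LVH replicates 1, 4, 5, 6, 8 and 11 or control replicates 4, 5 and 6 (adjusted p from 0.0552 to 0.0744). Without samples 4 to 6 the list had 6 higher genes, 1 lower and a median of 0.27. Of all genes 20.1% were then called, with a median of 0.0051. Of 20 cell cycle genes, 17 were higher, led by Birc5 (1.5, adjusted p = 2.10e-06) and Cdca3 (1.49, adjusted p = 3.88e-06), and 17 were higher without samples 4 to 6 as well. Both lists were measured in the same samples as the 9 genes and are given as values beside them.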

How the data were processed

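Left ventricular RNA of 12 mice infused with ANG II and 12 infused with saline was analysed. Reads were processed by the authors. The submitters' processing notes name Bowtie2, HISAT and RSEM, and the genome build and whether strand was kept are not given in the sources used here. The authors deposited 1 value per gene and sample, labelled FPKM. Other steps behind the values are not stated, and they were not plain FPKM. A set is formed by samples of a group that share 100 or more exactly equal gene values. Steps between the values of a gene gave its scale in every set, for 98.0% of the tested genes and all 9 members. On simulated data the scale was found for 297 of 300, and for 0 of 300 made from mixed values.

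Negative values were set to 0, 14026 genes passed a minimum mean of 0.1, and log2(FPKM + 1) was tested with limma 3.58.1 in R 4.3.3, without covariates and with Benjamini-Hochberg adjustment over all tested genes. All tests are two-sided. Means and SD of FPKM and the exact tests within sets kept negative values. Correlations used 100000 permutations. The exact tests and correlations ran in Python 3.11.15 (scipy 1.17.1). The fits were tested on simulated data. Gene positions are from GENCODE vM21 (GRCm38).

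The members and the gene lists were chosen with earlier results of these data known. Genes named besides the members are their paralogs and partner enzymes, Atf4, Ddit3, the 3 largest rises and falls of the wider pathway and of the ATF4 targets, the 2 largest changes of the other lists, and the 3 genes most correlated with each member. Prodh2 was not analysed here, and a gene that this rule also names is not reported here. Ndufa4l2, Cct6a and Phgdh-ps1 are named for their overlap or likeness to a member. Alternatives were other pseudocounts, filters and scalings, a Wilcoxon rank-sum test, a fit without the intensity trend, the set or the replicate number as a term, and leaving out sets or samples. An exact test within sets over all genes was added after the data were seen.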

Additional observations from a re-analysis of the deposited data

How the results depend on the processing

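Psat1, Mthfd2 and Shmt2 kept their direction and call under every alternative to the limma fit. Phgdh and Prodh kept their direction, and their calls were lost as given in the report. Leaving out 1 sample at a time gave 4038 to 5160 genes called of all tested, 5 to 7 of the 9 members and 16 to 23 of the 58 wider pathway genes. Leaving out samples 4 to 6 of both groups lowered these counts from 4697 to 2810, from 5 to 3 and from 20 to 12. Without samples 7 to 9 there were 3 members and 13 wider pathway genes called. The sign of Aldh18a1 turned to -0.0107 without samples 4 to 6. That of Psph, whose log2 fold change was 0.00, turned to -0.0334 (with median-ratio scaling), -0.104 (with quantile normalization), -0.0586 (without samples 4 to 6), -0.0148 (without samples 10 to 12), and lay between -0.0297 and 0.0436 with 1 sample left out. Mthfd2l turned to -0.021 and Ddit3 to -0.0123 with quantile normalization, and Ddit3 to -0.0392 without samples 4 to 6. In the exact test within sets, 5 members passed on deposited values and 3 before the adjustment. Of the correlations with lists, 5 passed in both measures, and 17 when only the mean of the group was removed, which leaves differences between sets in. The causes of these changes were not tested, but fewer samples entered the fits without a set.

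Whether the replicate numbers pair the samples is not known. Same-numbered samples share a set in which values were shifted and scaled, so the correlations that follow cannot settle it. The correlation of same-numbered samples in their deviations from the group means was -0.556 to -0.00109, 0 of 12 pairs were over 0.1, and 0 hypertensive-LVH samples correlated best with their own number. With the replicate block 2824 genes were called, 10 wider pathway genes and 4 members, Phgdh having an adjusted p of 0.079. Of the collagens and proline hydroxylase families 11 were then called and of the tRNA synthetases 2. The calls of Oat, Slc1a4, Sfxn3, Atf4, Eprs and Col3a1 were lost (adjusted p from 0.0717 to 0.0991). Without read counts, the depth behind low values such as those of Mthfd1l and Phgdh is unknown.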
